A study of Mus musculus with 9 samples.

Results

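Rop7-III and Rop7-II CD8 T cells carry T-cell receptors (TCRs) that recognise the same Toxoplasma epitope, Rop7, on the MHC class I molecule H-2Ld, and the comparison described here is of 3 Rop7-III with 3 Rop7-II samples out of the 9 samples of the series. Its members are the 12009 of 24060 genes in the deposited table whose expression exceeded 1 TPM (a length-corrected share of transcripts, scaled to 1000000 per sample) in at least 1 of these 6 samples. Rop7-I, the third clone, enters only the estimate of spread, and its values are given for orientation. Both groups were unstimulated splenocytes held overnight in medium with recombinant mouse IL-2 at 10 ng per ml and no antigen, after which cells that were CD3+, CD8+ and bound the H-2Ld-Rop7 tetramer were sorted to a purity of 90 to 95% per the labels, and both came from mice on a BALB/c background that the study's methods describe as backcrossed. Each clone is a transnuclear mouse line, made by transferring the nucleus of a single Rop7-specific CD8 T cell, so that the rearranged Tcra and Tcrb genes are present in the germline under their own promoters, and the study gives the profiled cells as homozygous for both chains. Because each clone is 1 line, the receptor and any other genetic difference between the lines cannot be told apart. The age and sex of the mice are not given in the sources used here, and the labels call the samples of a clone biological replicates without saying whether animals were pooled.

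A naive CD8 T cell circulates in a resting state that rests on tonic contact of its TCR with self-peptide on MHC class I and on interleukin-7. It feeds a low energy demand mainly by mitochondrial oxidation, enters lymph nodes with the help of Ccr7, and holds effector genes low by a set of transcription factors that includes Tcf7, Lef1, Foxo1 and Klf2. Antigen, cytokines and the strength of self-recognition are known to shift metabolism, surface receptors, adhesion molecules and transcription factors away from this state. The groups below were therefore described beyond the cell cycle and the TCR signalling genes that the study addressed.

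A TPM value is the share of all transcripts in a sample that a gene makes up, corrected for gene length, and the number of reads behind it is unknown. Differences were tested with limma on log2(TPM + 1) and are given as Rop7-III minus Rop7-II on that scale, which understates the change of genes near 0. A gene is said to have passed at a Benjamini-Hochberg adjusted p under 0.01, and to have been called when it also differed at least 2-fold. Of the 12009 genes, 774 passed as higher in Rop7-III (6.45%) and 715 as lower (5.95%), and 116 were called higher (0.966%) and 89 lower (0.741%). The median difference over all tested genes was -0.02. The samples of the groups did not overlap in any of the 205 called genes, nor in 4925 of the 12009 tested genes. Such a separation, mentioned below for single genes, is therefore a description and no further support. In bulk RNA, fewer cells of a type and less RNA per cell cannot be told apart.

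The label of CD8 T cells was checked against marker lists. Summed over Cd3d, Cd3e, Cd3g, Cd247, Cd8a, Cd8b1, Cd2 and Thy1, the CD8 T-cell markers stood between 7220 and 7446 TPM in Rop7-III and between 7542 and 7938 TPM in Rop7-II samples. Rop7-II replicate 1 stood apart: each of 16 B-cell, 16 myeloid and 7 MHC class II markers was highest there among all 9 samples. The summed B-cell markers reached 1140 TPM in it, against 109 and 114 TPM in the other two Rop7-II samples and 87 to 172 TPM in Rop7-III. The summed myeloid markers were 794, 88.2 and 293 TPM in Rop7-II replicates 1, 2 and 3 and 44.4 to 96.3 TPM in Rop7-III. By limma 0 of the 16 B-cell and 0 of the 16 myeloid markers passed, while at an unadjusted p under 0.05, 0 B-cell and 15 myeloid markers were lower in Rop7-III and 0 of either were higher. Of the CD8 T-cell markers, Cd2 was higher (0.54, adjusted p = 1.50e-05), and Cd8a (-0.39, adjusted p = 2.03e-04) and Thy1 (-0.17, adjusted p = 0.00722) were lower. Dendritic cell markers summed to 36.2 to 41.4 TPM in Rop7-III and to 55.4, 45.4 and 51.4 TPM in Rop7-II. CD4 T-cell markers summed to 29.5 to 32.8 TPM in Rop7-III and to 62.2, 51.1 and 51.9 TPM in Rop7-II, and erythroid markers to 113 to 482 TPM in Rop7-III and to 198, 27.2 and 70.3 TPM in Rop7-II. Of 5 sex-linked genes (Xist, Ddx3y, Eif2s3y, Kdm5d and Uty), 3 were at 0 TPM in all 6 samples. The 5 summed to 151 to 162 TPM in Rop7-III and to 165, 162 and 167 TPM in Rop7-II. Without Rop7-II replicate 1, 716 genes passed as higher (5.96%) and 566 as lower (4.71%), and the median difference of all genes was -0.01. Of the 205 called genes, 189 still passed in the same direction without it, 16 did not and 0 changed sign. Each list below is given with and without that library. Rop7-II replicate 3, with 293 TPM of summed myeloid markers, stays in the fit without replicate 1. In that fit the median difference of the myeloid markers was -0.88. Leaving out replicate 1 therefore does not remove all myeloid transcripts from Rop7-II.

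**Figure D1:**
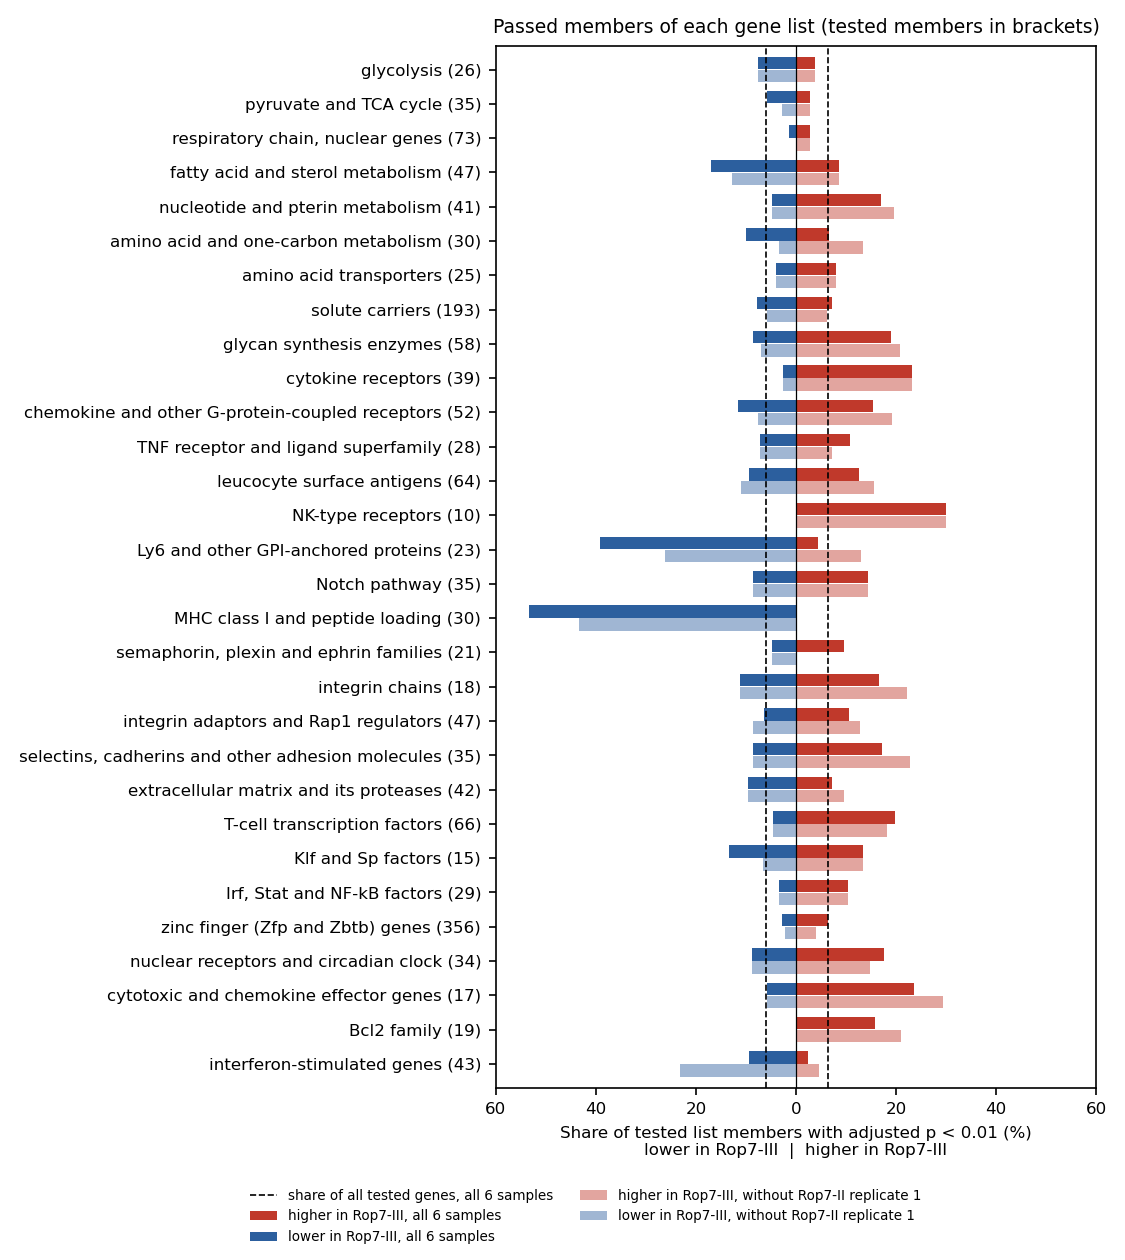
Share of the tested members of each of 30 gene lists that passed at an adjusted p under 0.01, lower in Rop7-III to the left and higher to the right, in percent, with dark bars for all 6 samples and pale bars without Rop7-II replicate 1. The dashed lines mark the shares of all 12009 tested genes (5.95% lower and 6.45% higher), and the longest bar is that of the MHC class I list, with 16 of 30 members lower.

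The metabolic lists held 499 tested genes, of which 42 were higher and 37 lower in Rop7-III, 15.8% in all, against 12.4% of all tested genes. The central pathways of energy metabolism differed little. Of 26 glycolytic genes, 1 was higher and 2 were lower, of 35 genes of pyruvate use and the tricarboxylic acid cycle 1 was higher and 2 were lower, and of 73 nuclear genes of the respiratory chain 2 were higher and 1 was lower, with a median of -0.10 for glycolysis. The glycolytic genes that passed were Gpi1, Slc2a1, which encodes the glucose transporter Glut1 (-0.27, adjusted p = 0.00288), and Ldhb (-0.58, adjusted p = 0.00445). With only the 6 samples in the limma fit, Slc2a1 (adjusted p = 0.0124) and Ldhb (adjusted p = 0.0161) did not pass. Without Rop7-III replicate 1, Gpi1, Slc2a1 and Ldhb all did not pass. Slc2a3, the other main glucose transporter of T cells, did not pass (0.17, adjusted p = 0.0302). With Rop7-II replicate 1 left out, these counts were 1 and 2, 1 and 1, and 2 and 0, the glycolytic median was -0.02, and Gpi1 did not pass (adjusted p = 0.0127).

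The exception was Pdk1, on chromosome 2 of GRCm38 from 71873215 to 71903858, whose product is a mitochondrial kinase that phosphorylates and inhibits pyruvate dehydrogenase and so holds pyruvate back from the mitochondria. Pdk1 stood at 41.7, 39.6 and 41.7 TPM in the Rop7-III samples and at 236, 226 and 255 TPM in the Rop7-II samples. The groups were far apart, and the samples within each were close together. The difference was -2.51 (standard error 0.05, adjusted p = 8.90e-09) and stayed at -2.52 without Rop7-II replicate 1. In Rop7-I it stood at 37.2, 37.7 and 39.03 TPM, near Rop7-III, so that Rop7-II was the clone with the high level. Its relatives Pdk2 (0.15, adjusted p = 0.0864) and Pdk3 (-0.08, adjusted p = 0.327) did not pass. Pdk1 is known as a target of the hypoxia-inducible factors, whose motif has ACGTG or GCGTG as its core. The RefSeq promoter of Pdk1 (GRCm38.p6, chr2:71872974-71873273, plus strand, from 250 bases before to 50 after the start of transcription) is shown because it belongs to the largest metabolic difference among enzymes, with matches to either core on both strands in capitals.
Pdk1 promoter: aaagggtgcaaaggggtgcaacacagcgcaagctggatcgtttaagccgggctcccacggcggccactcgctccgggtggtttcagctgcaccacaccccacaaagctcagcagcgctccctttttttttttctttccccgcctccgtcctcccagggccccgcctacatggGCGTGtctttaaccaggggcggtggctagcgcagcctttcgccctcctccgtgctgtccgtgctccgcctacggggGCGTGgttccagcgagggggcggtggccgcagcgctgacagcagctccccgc
Both matches were GCGTG. Among the 9012 tested genes with a RefSeq promoter of this length, 55.5% held GCGTG and 29.4% ACGTG in at least 1 promoter, and the matches are a description of this window.

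The largest fall and the largest rise of the metabolic lists were both in genes of amino acid transport. Slc6a19, on chromosome 13 of GRCm38 from 73679745 to 73700780, encodes a sodium-coupled transporter of neutral amino acids best known from gut and kidney. It was at 32.6, 24.3 and 31.2 TPM in Rop7-III and at 396, 349 and 403 TPM in Rop7-II, a difference of -3.67 (standard error 0.13, adjusted p = 4.19e-07). The lowest Rop7-II sample was thus still far above the highest Rop7-III sample. Slc6a19 overlaps Slc6a19os, which was called too, and without strand the reads of the pair cannot be told apart. In the opposite direction, Slc43a1, a transporter of large neutral amino acids, was at 10.2, 7.85 and 6.15 TPM in Rop7-III and 1.09, 0.67 and 0.86 TPM in Rop7-II (2.26, standard error 0.20, adjusted p = 7.67e-05). Of 25 amino acid transporters, these and Slc38a1 (0.32, adjusted p = 4.64e-04), which imports glutamine, were the members that passed, 2 higher and 1 lower, with or without Rop7-II replicate 1. That was 12% of the list, near the 12.4% of all tested genes. Among 193 solute carriers as a whole, 14 were higher and 15 lower, 15% in all, with a median of -0.01. These included the higher Slc4a7, a bicarbonate transporter, and Slc25a51, the mitochondrial carrier of NAD (0.85, adjusted p = 2.96e-06), and the lower Slc12a7, a potassium-chloride cotransporter (-0.71, adjusted p = 4.25e-05), and Slc28a2, a nucleoside transporter. Without that library 12 were higher and 11 lower, without Rop7-III replicate 1 the counts were 9 and 7, and without Rop7-II replicate 3, 8 were lower.

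In nucleotide and pterin metabolism, 7 of 41 genes were higher and 2 lower in Rop7-III, and 8 and 2 without Rop7-II replicate 1. Adk, the kinase that returns adenosine to AMP, stood at 82.8, 84.4 and 85.8 TPM in Rop7-III and 38.05, 34.8 and 34.6 TPM in Rop7-II (1.21, standard error 0.08, adjusted p = 1.48e-05). Gch1, the rate-limiting enzyme of tetrahydrobiopterin synthesis, stood at 16.5, 16.6 and 16.8 TPM against 5.75, 4.91 and 5.77 TPM (1.45, standard error 0.08, adjusted p = 7.71e-06). Xdh, which oxidises purines to urate, was at 16.8, 12.9 and 9.55 TPM against 5.72, 3.47 and 4.08 TPM (1.36, adjusted p = 0.00167). In each of Adk, Gch1 and Xdh every Rop7-III sample lay above every Rop7-II sample, and the groups were separate in all 205 called genes. Atg14 and Samd4, within 1 Mb of Gch1 on chromosome 14, were also called. Dck, which salvages deoxynucleosides, was also higher (0.39, adjusted p = 2.12e-04). The lower genes were Impdh1, of guanine nucleotide synthesis (-0.64, adjusted p = 4.19e-05), and Nt5e, the ectoenzyme CD73 that makes adenosine outside the cell (-0.97, adjusted p = 0.00392).

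Among 47 genes of fatty acid and sterol metabolism, 4 were higher and 8 lower with a median of -0.01, and 4 and 6 without Rop7-II replicate 1. The lower genes numbered 4 without Rop7-II replicate 3 or Rop7-III replicate 1 or 3, and 5 without Rop7-III replicate 2 or Rop7-I replicate 3, and the higher genes 2 without Rop7-II replicate 2 or Rop7-III replicate 1. Abca1, the exporter of cholesterol, was at 0.81, 0.82 and 0.72 TPM in Rop7-III and 8.28, 3.25 and 5.21 TPM in Rop7-II, where replicate 1 was highest (-1.81, standard error 0.26, adjusted p = 0.00111), and it was at -1.53 without that sample. Its Rop7-II values had the same order as the summed myeloid markers, and the part of myeloid cells in them was not tested. Insig1, which restrains sterol synthesis, differed by -0.45. The higher genes included Pltp, the phospholipid transfer protein, at 19.97, 22.8 and 22.7 TPM against 9.43, 7.04 and 6.43 TPM (1.41, adjusted p = 7.74e-05), which overlaps Ctsa, and Acadl, of mitochondrial fatty acid oxidation (0.55, adjusted p = 0.00158). Of 30 genes of amino acid and one-carbon metabolism, 2 were higher, Glul and Mthfd1l, and 3 lower, Mat2a, Mtrr and Gclc. Without Rop7-II replicate 1 the counts were 4 and 1, and Mthfd1l, Mtrr and Gclc did not pass.

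Enzymes that build glycans passed more often in the higher direction. Of 58 genes, 11 were higher and 5 lower in Rop7-III, and 12 and 4 without Rop7-II replicate 1, while the median over the list was 0.02. Several of the higher genes cap or branch the sugar chains of surface proteins. St8sia6, a sialyltransferase that adds sialic acid to sialic acid, stood at 37.4, 33.02 and 35.9 TPM in Rop7-III and 9.57, 9.67 and 11.8 TPM in Rop7-II (1.69, standard error 0.11, adjusted p = 1.59e-05). St3gal6, which caps galactose with sialic acid, stood at 23.9, 24.3 and 20.4 TPM against 7.41, 5.4 and 2.4 TPM (2.07, adjusted p = 7.08e-04). Mgat5, which starts the branch of N-glycans bound by galectins, was at 22.99, 22.5 and 24.6 TPM against 8.96, 8.84 and 11.9 TPM (1.17, adjusted p = 7.03e-05). The groups did not overlap in any of the 3 genes. Ugcg, the first enzyme of glycosphingolipid synthesis, and Man2a1, which trims N-glycans before branching, were higher by 0.82 and 0.50. Galnt9, of O-glycan initiation, was the largest fall, at 9.24, 6.68 and 7.6 TPM against 16.8, 21.7 and 20.9 TPM (-1.23, adjusted p = 4.50e-04), and the other falls were Hs6st1, Galnt6, Chst15 and St3gal1. The lower genes numbered 2 without Rop7-III replicate 1 or 3, and 3 without Rop7-III replicate 2, Rop7-II replicate 2 or any of the Rop7-I samples.

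**Figure D2:**
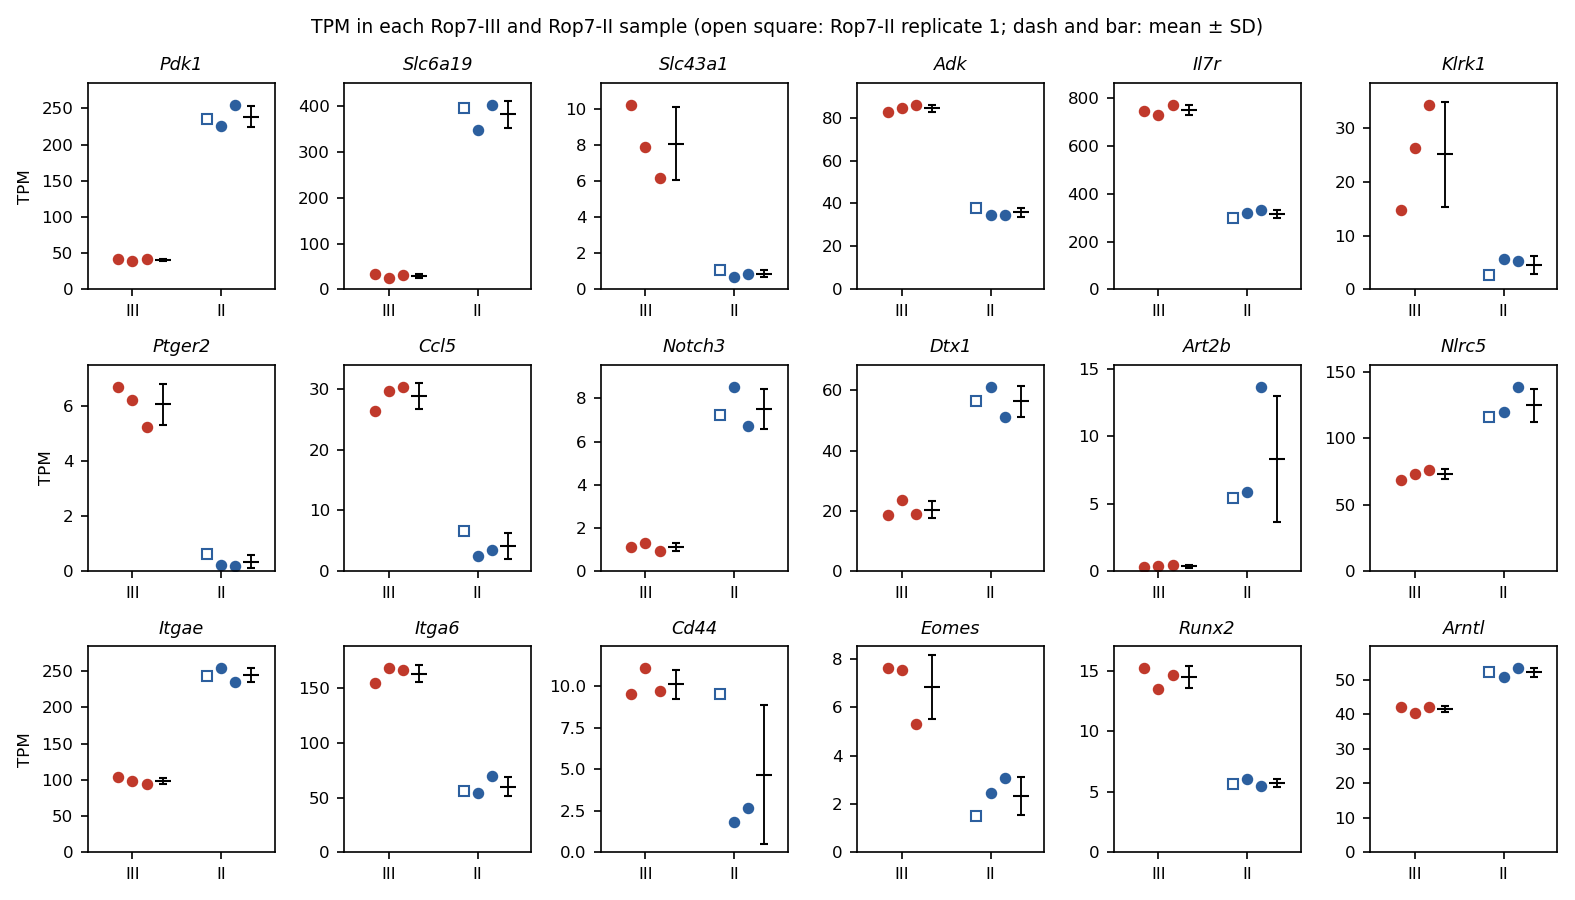
TPM of 18 genes in each of the 3 Rop7-III (red) and 3 Rop7-II (blue) samples, on a linear axis from 0, with the mean and SD as a dash and bar and Rop7-II replicate 1 as an open square. The groups are separate in each panel, but in that of Cd44 Rop7-II replicate 1, at 9.51 TPM, lies at the lowest Rop7-III sample.

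The surface receptor lists held 296 tested genes, of which 39 were higher and 44 lower, 28% in all against 12.4% of all tested genes, and 41 and 37 without Rop7-II replicate 1. The lists differed in direction, with cytokine and NK-type receptors mainly higher and MHC class I and glycosylphosphatidylinositol (GPI)-anchored proteins mainly lower in Rop7-III.

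Of 39 cytokine receptor genes, 9 were higher and 1 was lower, with a median of 0.10, and the counts were the same without Rop7-II replicate 1, with a median of 0.16. Il7r, on chromosome 15 of GRCm38 from 9506159 to 9529941, encodes the receptor chain for interleukin-7, the survival cytokine of naive T cells. It was at 747, 730.0 and 771 TPM in Rop7-III and 300.2, 318 and 333 TPM in Rop7-II, with little spread in either group (1.24, standard error 0.05, adjusted p = 1.24e-06). Rop7-I lay between them, at 473, 525 and 533 TPM. Ifngr1, the ligand-binding chain of the interferon-gamma receptor, was at 313, 337 and 366 TPM against 158, 157 and 194 TPM (1.00, adjusted p = 1.36e-04). Il10ra, Il4ra and Il18rap, chains of the receptors for interleukin-10, interleukin-4 and interleukin-18, differed by 0.77, 1.00 and 1.34. Il18r1, the partner of Il18rap, did not pass (0.28, adjusted p = 0.246). The chains of the receptors for interleukin-2, in which the cells were held, and interleukin-15 did not pass either, at 0.17 for Il2rb, -0.10 for Il2rg, 0.07 for Il2ra and 0.04 for Il15ra. The lower gene was Il27ra (-0.29, adjusted p = 0.00259). Leaving out Rop7-III replicate 3 gave 5 higher receptors, and leaving out replicate 1 or 2, or Rop7-I replicate 2 or 3, gave 6.

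Among 52 chemokine and other G-protein-coupled receptors, 8 were higher and 6 lower with a median of -0.09, and without Rop7-II replicate 1, 10 were higher and 4 lower with a median of 0.05. Leaving out Rop7-III replicate 3 gave 5 higher and 3 lower receptors, and 3 were lower also without Rop7-III replicate 1, Rop7-II replicate 2 or 3, or Rop7-I replicate 1. Ptger2, a receptor for prostaglandin E2 that raises cyclic AMP, was at 6.71, 6.24 and 5.25 TPM in Rop7-III and 0.6, 0.22 and 0.19 TPM in Rop7-II (2.41, standard error 0.18, adjusted p = 3.70e-05). Cxcr3, a chemokine receptor of activated and memory T cells, was low in both, at 2.59, 4.84 and 6.74 TPM against 0.86, 0.08 and 0.09 TPM (2.07, standard error 0.31, adjusted p = 0.00152). All 3 Rop7-III samples lay above the Rop7-II samples, but they spread widely among themselves. Cxcr4, the receptor for Cxcl12, was higher (0.67, adjusted p = 8.09e-05), as was Adora2a, a receptor for adenosine (0.99, adjusted p = 4.84e-04). Gpr97, an adhesion G-protein-coupled receptor, was lower (-1.36, adjusted p = 4.37e-05), at 2.64, 3 and 2.65 TPM against 9.01, 7.91 and 9.06 TPM. Ccr7, the homing receptor for lymph nodes, was at 728, 732 and 745 TPM in Rop7-III and 788, 831 and 804 TPM in Rop7-II, a small fall (-0.14, adjusted p = 0.00648) that was not past the threshold in 13 of the 20 alternatives. S1pr1, which guides exit from lymph nodes, did not pass (0.12, adjusted p = 0.0713).

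In the tumour necrosis factor superfamily, 3 of 28 genes were higher and 2 lower, and 2 and 2 without Rop7-II replicate 1. Cd40lg, the ligand of CD40, was at 3.7, 2.9 and 3.01 TPM in Rop7-III and 0.7, 0.22 and 0.12 TPM in Rop7-II (1.66, adjusted p = 4.01e-04), although the summed CD4 T-cell markers, of which Cd40lg is one, were lower in Rop7-III. Lta and Ltb, the lymphotoxins, were lower, at -1.27 and -0.29. Lta did not pass with only the 6 samples or without Rop7-II replicate 3 or Rop7-III replicate 1 or 3. Of 64 other leucocyte antigens, 8 were higher and 6 lower, and 10 and 7 without that library. Ptgfrn and Cd101, tetraspanin-associated immunoglobulin-like proteins, are neighbours on chromosome 3 with Cd2 and rose by 2.00, 1.72 and 0.54. Cmtm7, a small membrane protein, was at 39.5, 39.2 and 39.6 TPM against 147, 139.6 and 132 TPM in Rop7-II and 32.98, 35.5 and 37.02 TPM in Rop7-I, so that it was high in Rop7-II alone of the 3 clones (-1.79, standard error 0.05, adjusted p = 1.01e-07). Nfam1, an activating receptor, fell, at -1.47.

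Receptors shared with natural killer (NK) cells were higher where they passed. Of 10 tested genes, 3 were higher and 0 lower by limma, with or without Rop7-II replicate 1, and at an unadjusted p under 0.05 the counts were also 3 and 0. Klrk1, which encodes the activating receptor NKG2D, stood at 14.8, 26.3 and 34.3 TPM in Rop7-III and 2.66, 5.61 and 5.34 TPM in Rop7-II (2.21, standard error 0.31, adjusted p = 0.00104). Klrd1, which encodes the CD94 chain, stood at 291, 363 and 464 TPM against 148, 209 and 176 TPM (1.05, adjusted p = 0.00160), and Clec2d, a ligand for an inhibitory NK receptor, differed by 0.44. The Rop7-III samples were spread more than 2-fold in Klrk1 but none reached the Rop7-II range. Klrk1, Klrd1 and Clec2d lie within 1 Mb of each other on chromosome 6, so that the 3 are not independent in position. The 8 NK-cell markers summed to 93.8 to 101 TPM in Rop7-III and to 134, 94.4 and 94.0 TPM in Rop7-II, and 0 of the 4 that were tested passed, against 1 higher and 1 lower at an unadjusted p under 0.05. The part of NK cells in these values was not tested.

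Ly6 and other GPI-anchored proteins were lower in Rop7-III in 9 of 23 genes and higher in 1, with a median of -0.45. Without Rop7-II replicate 1, 6 were lower and 3 higher, with a median of -0.37, and leaving out Rop7-III replicate 2 or 3 gave 5 lower genes. Ly6e, an interferon-inducible Ly6 protein, was at 44.5, 51.6 and 43.1 TPM in Rop7-III and 207, 106 and 213 TPM in Rop7-II (-1.83, standard error 0.23, adjusted p = 5.88e-04). Rop7-II replicate 2 lay far below the other two Rop7-II samples, and every Rop7-II sample lay above Rop7-III. Its neighbours Ly6k and Lynx1 on chromosome 15 were lower too. Art2b, an ectoenzyme that modifies surface proteins with ADP-ribose from NAD, was at 0.26, 0.34 and 0.46 TPM against 5.4, 5.84 and 13.7 TPM (-2.68, standard error 0.33, adjusted p = 5.29e-04), and its pseudogene Art2a-ps, with which it may share reads, fell, at -1.11. Tdgf1, a coreceptor for Nodal, stood at 3.57, 2.69 and 1.73 TPM against 14.5, 15.4 and 16.6 TPM (-2.20, adjusted p = 5.29e-05). Folr4, a folate receptor relative known from regulatory CD4 T cells, was lower (-1.42, adjusted p = 0.00602) and is itself 1 of the CD4 T-cell markers, whose sum was lower in Rop7-III. The part of CD4 T cells in these values was not tested. Art2a-ps and Folr4 did not pass without Rop7-II replicate 1, at adjusted p = 0.0112 and 0.0115.

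Notch is a receptor that is cut on contact with its ligand and then acts in the nucleus with Rbpj. Of 35 Notch pathway genes, 5 were higher and 3 lower, with or without Rop7-II replicate 1. Notch3 stood at 1.11, 1.3 and 0.94 TPM in Rop7-III and 7.23, 8.55 and 6.73 TPM in Rop7-II (-2.00, standard error 0.14, adjusted p = 2.01e-05). Dtx1, a ubiquitin ligase that Notch induces, stood at 18.6, 23.6 and 18.9 TPM against 56.5, 61.2 and 51.2 TPM (-1.43, standard error 0.13, adjusted p = 9.63e-05). Both were lower in every Rop7-III sample, and in Rop7-I they were at 2.72, 2.36 and 1.93 TPM and 38.99, 37.5 and 28.01 TPM. Notch1, the main Notch receptor of T cells, and Rbpj did not pass, at 0.01 and 0.02. The higher genes were Maml2, Numb, Psen2, Fbxw7 and Mib2, by 0.27 to 0.50. Of 21 genes of the semaphorin, plexin and ephrin families, Sema4f was lower (-1.34, adjusted p = 6.70e-05), and Ephb6 and Sema4d were higher, which did not pass without Rop7-II replicate 1.

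MHC class I molecules present peptides that the proteasome makes and that Tap1 and Tap2 carry into the endoplasmic reticulum, and Nlrc5 is the coactivator of their genes. Of 30 tested genes of this pathway, 16 were lower and 0 higher in Rop7-III by limma, with a median of -0.24, and 13 and 0 without Rop7-II replicate 1, with a median of -0.26. At an adjusted p under 0.05, 17 were lower and 2 higher, and at an unadjusted p under 0.05, 20 and 3. Leaving out Rop7-II replicate 3 gave 6 lower genes, and leaving out Rop7-III replicate 1, 2 or 3 gave 7, 6 and 8. The difference was below 0 in 22 of the 30 genes, against 54.1% of all tested genes. Tap1, Tap2, Psmb8 and Psmb9 are neighbours on chromosome 17, where Tapbp and most of the heavy chain genes also lie. These members are thus not independent in position. Nlrc5 and Psmb10 lie on chromosome 8 and B2m on chromosome 2. Nlrc5, on chromosome 8 of GRCm38 from 94434335 to 94527272, stood at 68.7, 73.2 and 76.2 TPM in Rop7-III and 116, 119 and 139 TPM in Rop7-II, with no overlap (-0.77, standard error 0.08, adjusted p = 1.72e-04). Tap1 stood at 198, 199 and 228 TPM against 283, 285 and 312 TPM (-0.49, standard error 0.06, adjusted p = 4.01e-04). Psmb9, a subunit of the immunoproteasome, stood at 148, 143 and 147 TPM against 180.3, 196 and 185 TPM (-0.36, standard error 0.04, adjusted p = 2.85e-04), and the other immunoproteasome subunits Psmb8 and Psmb10 differed by -0.22 and -0.25, of which Psmb10 did not pass without Rop7-II replicate 1 (adjusted p = 0.0151). B2m, the invariant light chain, was close to the threshold (-0.13, adjusted p = 0.0125). In Rop7-I, Nlrc5 stood at 181, 159 and 155 TPM, above both, and Tap1 at 287, 284 and 272 TPM, within the range of Rop7-II or just below it.

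The class I heavy chains themselves divided. H2-K1, the classical K chain, was at 1889.7, 1869 and 2015.1 TPM in Rop7-III and 2959, 2257 and 3079 TPM in Rop7-II (-0.51, adjusted p = 0.00534), and it did not pass without Rop7-II replicate 1 (adjusted p = 0.0165). H2-Q7, on chromosome 17 of GRCm38 from 35439140 to 35443773, a Qa-2 gene, was at 33.3, 9.9 and 3.72 TPM against 126, 93.4 and 142 TPM (-3.31, standard error 0.56, adjusted p = 0.00281), with a wide spread among Rop7-III samples. The other classical chains, H2-D1 (-0.13, adjusted p = 0.131) and H2-L (0.27, adjusted p = 0.387), did not pass and had differences of opposite sign. Rop7-II replicate 2 differed from both other Rop7-II samples in many of these genes. H2-Bl was at 66.6 TPM in it against 23.9 and 24.6 TPM, H2-Q1 at 110.5 against 45.9 and 53.2 TPM, and H2-Q10 at 186 against 79.4 and 79.5 TPM, while H2-K1 and H2-T10 were lower in it. In these genes replicate 2 lay near the Rop7-I samples, which had 58.4, 66.04 and 58.7 TPM of H2-Bl and 164, 174 and 153 TPM of H2-Q10. Without Rop7-II replicate 2, 12 genes of the list were lower and 6 higher, the latter being H2-Bl (1.24, adjusted p = 1.27e-05), H2-Q1, H2-Q2, H2-Q6, H2-Q8 and H2-Q10. The count of 0 higher genes thus holds only with that library, whereas Nlrc5 (-0.80), Tap1 (-0.51) and Psmb9 (-0.32) were lower with or without it. The heavy chain genes are near copies of each other among which reads may be split wrongly, so that the value of any single one is uncertain. The cause of the split among the Rop7-II samples was not tested.

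**Figure D3:**
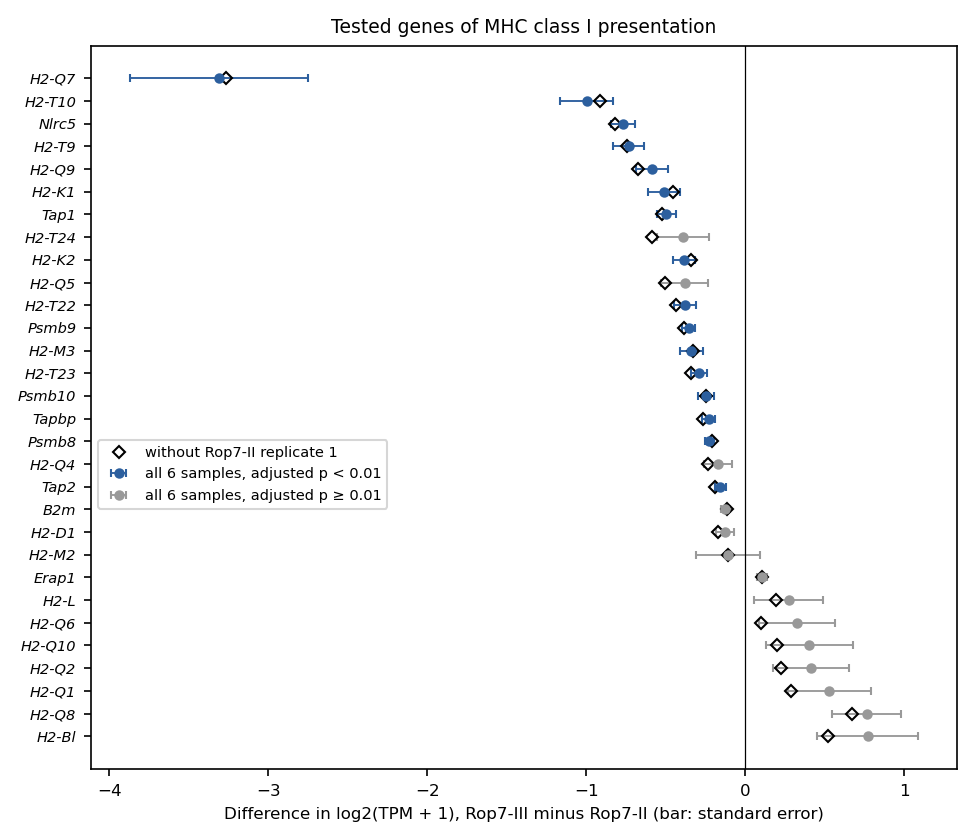
Difference in log2(TPM + 1), Rop7-III minus Rop7-II, of the 30 tested genes of MHC class I presentation, with the standard error as a bar, the 16 genes that passed in blue and the others in grey. Open diamonds give the difference without Rop7-II replicate 1, and 22 of the 30 genes lie below 0 in either set.

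Nlrc5 acts on class I promoters through the SXY module, whose X2 box has TGACG and whose Y box has CCAAT at its core. The RefSeq promoters (GRCm38.p6) of H2-K1 (chr17:34000298-34000597, minus strand) and H2-Q7 (chr17:35438905-35439204, plus strand) are shown because H2-K1 is a classical heavy chain and H2-Q7 had the largest fall of the list, with these cores, on either strand, in capitals.
H2-K1 promoter: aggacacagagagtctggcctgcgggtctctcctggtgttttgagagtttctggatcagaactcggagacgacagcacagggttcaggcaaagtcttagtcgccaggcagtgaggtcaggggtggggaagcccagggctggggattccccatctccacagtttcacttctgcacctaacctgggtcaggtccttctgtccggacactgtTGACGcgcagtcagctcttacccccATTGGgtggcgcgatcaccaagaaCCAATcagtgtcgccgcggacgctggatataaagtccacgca
H2-Q7 promoter: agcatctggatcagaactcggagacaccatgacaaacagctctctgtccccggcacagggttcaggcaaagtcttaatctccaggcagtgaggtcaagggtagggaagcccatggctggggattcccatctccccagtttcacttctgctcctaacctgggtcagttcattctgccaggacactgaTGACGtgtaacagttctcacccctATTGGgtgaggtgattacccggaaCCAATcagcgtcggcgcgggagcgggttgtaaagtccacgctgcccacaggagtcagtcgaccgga
Each held 3 matches in the same order, a TGACG followed by ATTGG, which is CCAAT read on the other strand, and by CCAAT. Of the 16 lower genes of the list, 10 had a RefSeq promoter. Of these, 6 held both cores in 1 promoter (H2-K1, H2-M3, H2-Q7, H2-T22, Psmb9 and Tap1), against 14.2% of the 9012 tested genes with a promoter. An interferon regulatory factor motif, GAAANNGAA on either strand, was in 2 of the 10, H2-T22 and H2-T23, against 8.8% of all. The members of the list that did not pass were not counted, although B2m, which is 1 of them, also held both cores. H2-T23, which was lower, held CCAAT but no TGACG. These shares therefore do not set the lower members apart from the others. Heavy chains are copies of each other, so that these are not independent cases, and a match says nothing of binding.

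Interferon-stimulated genes were described as a wider list. Of 43 genes, 1 was higher and 4 were lower in Rop7-III, with a median of -0.21, and without Rop7-II replicate 1, 2 were higher and 10 lower, with a median of -0.31. The share that passed was 11.6% against 12.4% of all tested genes, and 27.9% against 10.7% without that library. Gbp2, a guanylate-binding protein, stood at 48.6, 45.5 and 45.8 TPM in Rop7-III and 61.2, 65.97 and 65.1 TPM in Rop7-II (-0.45, adjusted p = 0.00152). Every Rop7-III sample lay below every Rop7-II sample in this gene. The count of lower genes without Rop7-II replicate 1 was more than 2-fold that with it, while it was 1 without Rop7-II replicate 3 or Rop7-III replicate 2 or 3, and 2 without Rop7-III replicate 1 or Rop7-I replicate 1 or 2.

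The adhesion lists held 219 tested genes, of which 30 were higher and 19 lower, 22.4% in all against 12.4% of all tested genes, and 35 and 18 without Rop7-II replicate 1. Integrins pair an alpha with a beta chain and bind matrix or cell-surface ligands. Of 18 integrin chains, 3 were higher and 2 lower. Itgae, the alpha chain of CD103, which pairs with Itgb7 and binds E-cadherin on epithelia, stood at 104, 98.05 and 94.6 TPM in Rop7-III and 244, 254 and 235 TPM in Rop7-II (-1.30, standard error 0.11, adjusted p = 5.54e-05). Itgb7 itself stood at 403, 436 and 431 TPM against 621, 667 and 639 TPM (-0.60, standard error 0.07, adjusted p = 2.59e-04). Both chains of this integrin were thus lower in every Rop7-III sample. Itgae overlaps Gsg2, which was also called, and the reads of the pair cannot be assigned with certainty. Itga4, which also pairs with Itgb7, did not pass (0.12, adjusted p = 0.143).

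Without Rop7-II replicate 1, 4 chains were higher and 2 lower. Of the higher chains, Itga6, which forms laminin receptors, stood at 154, 168 and 167 TPM in Rop7-III and 55.8, 53.7 and 69.5 TPM in Rop7-II (1.44, standard error 0.09, adjusted p = 1.17e-05). It lies within 1 Mb of Pdk1 on chromosome 2, which moved the other way. Itga9 stood at 14.8, 12.4 and 10.98 TPM against 2.14, 3.01 and 2.63 TPM (1.93, standard error 0.18, adjusted p = 8.85e-05), and Itgav was higher by 0.50. Itgal, the alpha chain of LFA-1 and the main integrin of T cells, did not pass, at 174, 176 and 179 TPM against 170.3, 173 and 182 TPM (0.01, adjusted p = 0.850), nor did Tln1, the talin that activates it (-0.02, adjusted p = 0.722). Itgb1 passed only without Rop7-II replicate 1, at 0.30 (adjusted p = 0.00477) against 0.21 (adjusted p = 0.0671) with it.

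Cd44, the hyaluronan receptor that marks memory-like T cells, depended on that library. It stood at 9.52, 11.1 and 9.73 TPM in Rop7-III and at 9.51, 1.85 and 2.68 TPM in Rop7-II. Replicate 1 of Rop7-II, with the B-cell and myeloid transcripts, was as high as Rop7-III, and the other two Rop7-II samples were far lower. With all samples the difference was 1.21 (standard error 0.39, adjusted p = 0.0488), and without replicate 1 it was 1.78 (adjusted p = 9.36e-05). The part of the other cells in that value was not tested.

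Among 35 selectins, cadherins and other adhesion molecules, 6 were higher and 3 lower, and 8 and 3 without Rop7-II replicate 1. Icam1, a ligand of LFA-1, was higher (0.57, adjusted p = 1.70e-04). Pkp4, a plakophilin of cell junctions, was at 34.5, 32.3 and 33.05 TPM against 6.8, 9.04 and 8.67 TPM (1.91, adjusted p = 5.10e-06), and it lies within 1 Mb of Dapl1, one of the largest rises. L1cam, Pvr and Cd99l2 were lower, at -0.81, -0.88 and -0.61. Of 47 integrin adaptors and regulators of the small GTPase Rap1, 5 were higher, among them the focal adhesion protein Tes (0.57, adjusted p = 1.40e-05), Cytip, which restrains integrin adhesion, and the Rap1 activator Rapgef6, and 3 were lower, which were Flna (-0.37, adjusted p = 6.23e-04), Pxn and Sipa1l2. Without that library the counts were 6 and 4, and Pxn, which did not pass in 14 of the 20 alternatives, was lost (adjusted p = 0.0240). Among 42 genes of extracellular matrix and its proteases, 3 were higher, Col6a4, Mfap1a and Mfap1b, and 4 lower, Adam19, Adamts14, Mmp15 and Timp2, an inhibitor of metalloproteinases (-0.59, adjusted p = 6.53e-05). With Rop7-II replicate 1 left out, 4 were higher and 4 lower, and Mmp15 did not pass (adjusted p = 0.0213). Mfap1a and Mfap1b are near copies, and despite their name they encode splicing proteins.

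The transcription factor lists held 498 tested genes, of which 47 were higher and 19 lower, 13.3% in all against 12.4% of all tested genes, and 36 and 16 without Rop7-II replicate 1. The factors of the naive state did not pass. Tcf7 was at 2435, 2442 and 2465 TPM in Rop7-III and 2171, 2396 and 2477 TPM in Rop7-II (0.06, adjusted p = 0.373). Lef1 (-0.08), Foxo1 (0.03), Klf2 (-0.17), Bach2 (0.18) and Runx3 (-0.12) had adjusted p between 0.0203 and 0.639. Myc, which drives growth after stimulation, did not pass (0.19, adjusted p = 0.115).

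Among 66 transcription factors of T-cell development and differentiation, 13 were higher and 3 lower, and 12 and 3 without Rop7-II replicate 1, with medians of 0.04 and 0.07. Eomes, a T-box factor of memory and cytotoxic CD8 T cells, was low, at 7.62, 7.55 and 5.3 TPM in Rop7-III and 1.49, 2.45 and 3.07 TPM in Rop7-II (1.24, standard error 0.21, adjusted p = 0.00259). The groups were separate, and Rop7-I was higher than both, at 12.3, 17.5 and 12.6 TPM. Leaving out Rop7-III replicate 1 or replicate 2 left Eomes above the limit, at adjusted p = 0.0149 and 0.0143. Runx2 was at 15.2, 13.4 and 14.7 TPM against 5.68, 6.1 and 5.46 TPM (1.19, standard error 0.09, adjusted p = 3.11e-05), and it overlaps Supt3. Gata3, required for T-cell maintenance, differed by 0.85, and Ikzf2, which encodes Helios, by 0.66. Msgn1, a factor of embryonic mesoderm, was the largest rise of the list, at 47.8, 44.1 and 53.3 TPM against 3.51, 5.01 and 2.16 TPM (3.48, adjusted p = 7.06e-06). It is 1 of several factors of other tissues in this list, which also held Sall2, higher by 1.39, and Gcm1, a placental factor that fell from 3.48, 4.15 and 6.88 TPM to 0, 0.21 and 0.19 TPM (-2.33, adjusted p = 7.58e-05). Id2, an inhibitor of E proteins that favours effector fate, was at 58.9, 67.8 and 58.2 TPM against 84.02, 94.3 and 87.5 TPM (-0.52, standard error 0.07, adjusted p = 9.07e-04), and Ikzf3, which encodes Aiolos, was lower, at -0.34.

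Stat4, which carries signals of interleukin-12 and type I interferon, was at 203, 196 and 201 TPM in Rop7-III and 90.2, 114 and 109.7 TPM in Rop7-II (0.94, standard error 0.08, adjusted p = 6.59e-05). It was 1 of 3 higher genes among 29 Irf, Stat and NF-kB factors, with Nfkbiz (0.71, adjusted p = 1.76e-05) and Irf2, against 1 lower gene, with or without Rop7-II replicate 1. The share that passed was 13.8%, near the 12.4% of all tested genes. Irf2 did not pass when any 1 of the Rop7-III samples was left out or with only the 6 samples. Of 15 Klf and Sp factors, Klf3 and Klf11 were higher and Klf13 and Sp6 lower, Klf13 at -0.37. Sp6 did not pass in 10 of the 20 alternatives, among them the one without Rop7-II replicate 1 (adjusted p = 0.0119), which left 2 higher and 1 lower, and 0 were higher by limma when any 1 of the Rop7-III samples was left out. Of 356 zinc finger genes named Zfp, Zbtb or the like, 23 were higher and 10 lower, 9.27% in all and below the share of all tested genes, and 14 and 8 without that library. Leaving out Rop7-III replicate 1, 2 or 3 gave 7, 8 and 7 higher genes, and leaving out replicate 1 or 2 gave 3 and 4 lower ones. Without Rop7-II replicate 3, 13 were higher and 6 lower, without Rop7-II replicate 2, 15 were higher, and without Rop7-I replicate 1, 14.

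Of 34 nuclear receptors and genes of the circadian clock, 6 were higher and 3 lower, with a median of 0.15, and 5 and 3 without Rop7-II replicate 1, with a median of 0.20, while 3 were higher without Rop7-III replicate 2 or 3. Arntl, the clock activator Bmal1, was at 42.1, 40.4 and 42.1 TPM in Rop7-III and 52.4, 50.8 and 53.4 TPM in Rop7-II (-0.32, standard error 0.04, adjusted p = 4.79e-04), and the groups were separate. Per2, a repressor, was low in both groups, at 1.77, 2.18 and 1.51 TPM against 0.3, 0.46 and 0.2 TPM (1.09, adjusted p = 0.00103), and Tef, an output of the clock, was higher (0.83, adjusted p = 1.48e-05). The hour of sampling is not given in the sources used here, and its part in these values was not tested. Rarg and Rara, receptors for retinoic acid, were lower, at -0.80 and -0.20. Rara did not pass when any 1 of the Rop7-III samples was left out or with only the 6 samples.

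Effector and survival genes were described as well. Among 17 cytotoxic and chemokine effector genes, 4 were higher and 1 lower, and 5 and 1 without Rop7-II replicate 1. Ccl5, a chemokine of memory and effector CD8 T cells, was at 26.4, 29.6 and 30.4 TPM in Rop7-III and 6.51, 2.42 and 3.48 TPM in Rop7-II (2.61, standard error 0.24, adjusted p = 8.85e-05). Its highest Rop7-II value was in replicate 1, and the difference was 2.93 without that sample. Xcl1, a chemokine for cross-presenting dendritic cells, was at 1.84, 1.21 and 3.31 TPM in Rop7-III and listed at 0 in each Rop7-II sample. Ccl27a, a skin chemokine, was higher too, but overlaps Il11ra1. Srgn, the proteoglycan of cytotoxic granules, was higher by 0.38 and the granule protease Ctsw lower, at -0.46. Of 19 genes of the Bcl2 family, 3 were higher and 0 lower by limma, and 4 and 0 without that library, while at an unadjusted p under 0.05 they were 6 and 2. With all samples the share that passed was 15.8%, against 12.4% of all tested genes. Bbc3, which encodes the death-promoting Puma, was at 59.9, 60.7 and 57.9 TPM in Rop7-III and 27.1, 23.7 and 23.4 TPM in Rop7-II (1.24, standard error 0.08, adjusted p = 1.39e-05). Bcl2l11, which encodes the death-promoting Bim, was higher by 0.41. Bcl2, the survival factor that interleukin-7 is known to maintain, was at 19.6, 19.3 and 17.7 TPM against 12.1, 12.9 and 13.6 TPM (0.52, adjusted p = 0.00332), and it did not pass without Rop7-II replicate 1 (adjusted p = 0.0110).

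**Figure D4:**
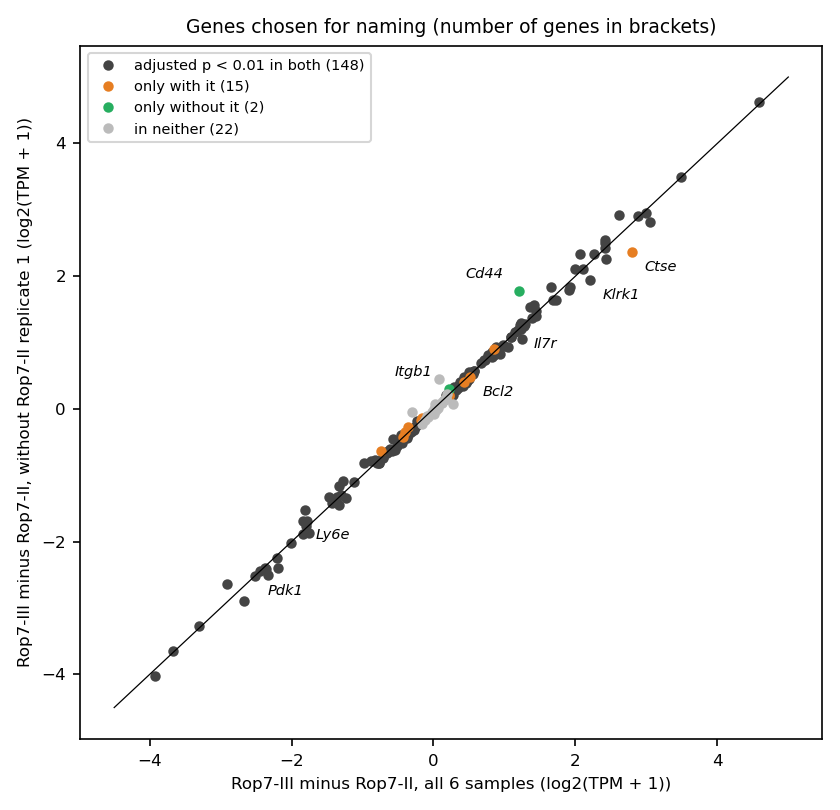
Difference in log2(TPM + 1), Rop7-III minus Rop7-II, of the 187 genes chosen for naming, with all 6 samples on the horizontal axis and without Rop7-II replicate 1 on the vertical axis, with a line of equality. Of these genes 148 passed in both fits, 15 only with that library, 2 only without it (Cd44 and Itgb1) and 22 in neither.

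Across the lists, 68 of the 205 called genes were in a functional list. Of the called genes, 105 had another called gene within 1 Mb, among them Pdk1 with Itga6, Eomes with Itga9, Klrk1 with Klrd1, Ptgfrn with Cd101, and Ly6e with Ly6k, so that these pairs are not independent of each other in position. Gch1, Ptger2 and Sall2 also had called neighbours within 1 Mb. All lie on chromosome 14 of GRCm38, starting at 47153895, 44988111 and 52311177. Whether called genes lie near the rearranged Tcra and Tcrb genes was not tested. The matching shares over all tested genes were not counted, so that neither 68 nor 105 can be called high or low. Without Rop7-II replicate 1, 182 further genes passed, and 28 of them differed at least 2-fold. The groups did not overlap in any of the 205 called genes, which holds for 4925 of the 12009 tested genes.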

How the data were processed

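Polyadenylated RNA of sorted CD8 T cells was sequenced without strand information, from 200 ng per sample. The authors aligned and counted reads with RSEM 1.2.11 against RefSeq genes of mm10 and deposited TPM values per gene and sample, each summing to about 1000000. DESeq2 1.8.1, named in the submitters' processing notes, needs counts and was not used here. No column of samples was left unused. Groups came from the labels.

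Here log2(TPM + 1) was fitted with limma 3.58.1 in R 4.3.3, with the prior spread following mean expression (trend), to all 9 samples as 3 groups, over the 12009 genes with a maximum above 1 TPM in the 6 samples compared, and p values were adjusted over all of them by the Benjamini-Hochberg method. The script was tested on simulated data. P values measure the spread between the samples of a clone. The functional and marker lists, the comparison and the genes were chosen with earlier results of these data known, so that their counts are descriptions. Named genes were the 10 largest rises and 10 largest falls among called genes, in each list the 3 higher and 3 lower genes that passed with the lowest adjusted p, and a set of well-known genes whatever their values. Others, which were Mgat5, St3gal6, Il4ra, Il18rap, Adora2a, Folr4, Art2a-ps, Lynx1, Psen2, Mib2, Mmp15, Galnt6, Chst15, Cd8a, Thy1, Gata3, Ikzf2, Xcl1 and the MHC class I genes, were named after their values were seen, as was the remark on Rop7-II replicate 2. Positions and promoters are from RefSeq on GRCm38.p6, the assembly of mm10. Alternatives were pseudocounts of 0.1 and 0.5, no filter or a stricter one, median shift, quantile normalization, no trend, sample weights, only the 6 samples, a replicate block, an adjusted p under 0.05 and each sample left out. Some results are not reported here.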

Additional observations from a re-analysis of the deposited data

How the results depend on the processing

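Called counts were 116 higher and 89 lower, and passed counts 774 and 715. A filter of 1 TPM or more in all 6 samples left 10610 genes and gave 75 called higher. It leaves out genes that are near 0 in either group. An adjusted p under 0.05 gave 1505 passed higher and 1543 lower. A fit of only the 6 samples gave 406 passed lower, and the cause was not tested. Leaving out 1 sample at a time gave 96 to 131 called higher, 73 to 124 called lower, 456 to 716 passed higher and 361 to 602 passed lower. The passed counts moved by over 1.5 times without Rop7-III replicate 1 (456 and 361), replicate 2 (471 and 381) or replicate 3 (470 and 420) and, for lower genes, without Rop7-II replicate 3 (476). Shifting samples to a common median or quantile normalization kept the direction of every named gene that passed in the main fit or in the alternative, as did the pseudocounts of 0.1 and 0.5. Changes of sign in named genes that passed in neither were not counted. The lower MHC class I genes numbered between 6 (without Rop7-II replicate 3 or Rop7-III replicate 2) and 14 when 1 sample was left out, and 8 in the fit of 6 samples, and the higher cytokine receptors between 5 and 9. Of 187 named genes, 37 did not pass in at least 1 alternative and 4 passed only in an alternative. H2-Q7 did not pass in the fit of 6 samples (adjusted p = 0.0131), without Rop7-II replicate 3 (0.0133) or without Rop7-III replicate 2 (0.0145).

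The labels number the replicates 1 to 3 in each clone but do not say that a number is shared. Deviations of same-numbered samples from their clone means correlated at -0.11, -0.10 and 0.11, so that the pairing was not established. With the number as a replicate block, 102 genes were called higher, 81 lower, 605 passed higher and 510 lower, and 20 named genes did not pass. Depth per gene is unknown in TPM, so that low genes such as Cxcr3, Per2 and Ptger2 carry the least certain folds.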

Other observations

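Several of the largest differences belonged to genes in none of the functional lists. Dapl1 was at 354, 364 and 329 TPM in the Rop7-III samples, against 29.3, 53.8 and 43.8 TPM for Rop7-II and 256, 260.3 and 207 TPM for Rop7-I. Crip1, a small LIM-domain protein, was at 65.1, 68.2 and 68.3 TPM in the Rop7-III samples, against 748, 441 and 403 TPM for Rop7-II and 71.1, 68.7 and 57.2 TPM for Rop7-I, with a log2 difference of -2.63 without Rop7-II replicate 1, where it was highest. Tmie, a component of the mechanotransduction channel of hair cells, was at 21.5, 19.6 and 15.4 TPM in the Rop7-III samples, against 107, 93.8 and 121 TPM for Rop7-II and 67.6, 76.98 and 75.8 TPM for Rop7-I. It lies beside Tdgf1, Als2cl, Gm590 and Prss50 on chromosome 9, all of them called. Ctse, an endosomal protease, was at 441, 443 and 463 TPM in the Rop7-III samples but at 33.8, 32.3 and 231 TPM in those of Rop7-II, where replicate 3 was far above the other two, and it did not pass in 12 of the 20 alternatives, among them those without Rop7-II replicate 1 (adjusted p = 0.0277) or replicate 2, without any 1 of the Rop7-III samples, with only the 6 samples and with a replicate block. Pcsk1, a prohormone convertase, was highest in Rop7-II, at 18.5, 23.2 and 16.5 TPM, and stood at 3.08, 3.2 and 2.49 TPM in the Rop7-III samples.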
